A study of Mus musculus with 9 samples.

Results

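The lens capsule was followed through 10 genes: the peroxidase gene Pxdn, the collagen IV chain genes Col4a1, Col4a2 and Col4a3, the laminin chain genes Lama1, Lama5, Lamb1 and Lamc1, the nidogen gene Nid1 and the perlecan gene Hspg2. They were chosen by name, with earlier results of these data known. They encode structural proteins of the capsule or, for Pxdn, an enzyme that acts on them. Each had 1 of the 15820 entries that carry a gene symbol in a table of 22013. RNA was sequenced from mouse lenses at E16.5, with 8 lenses pooled per library and 3 libraries per genotype, 9 in all. Controls were Mafg+/-:Mafk+/-, so they lack 1 copy of each small Maf gene and no wild type lens was part of the comparison. Compound KO lenses were Mafg-/-:Mafk+/- and double KO lenses Mafg-/-:Mafk-/-. Mafg and Mafk encode small Maf proteins, which bind DNA as partners of other leucine zipper factors and have no activation domain of their own. Values are normalized CPM, that is, CPM (the count of an entry scaled to the size of its library) multiplied by a composition factor per library and given to 1 decimal. No read counts were part of the table, so the depth behind each value is unknown.

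The lens capsule is a thick basement membrane that surrounds the lens and is made by the lens cells themselves, by the epithelium in front and by the elongating fiber cells behind. Its scaffold is a network of collagen IV, built from trimers of alpha chains, and a network of laminin, built from an alpha, a beta and a gamma chain, with nidogen and perlecan as linkers between them. Peroxidasin, the product of Pxdn, makes the sulfilimine bond that ties neighbouring collagen IV trimers together, and mutations in PXDN and in COL4A1 are known in inherited eye disease with cataract.

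Promoter windows of 300 bases, 250 before to 50 from the start site on, were available for 7 of the 10 genes from RefSeq on build GRCm38.p6. Those of Col4a1 and Col4a2 are shown because these neighbours are read in opposite directions from overlapping windows and because their levels moved together in the libraries. The Col4a1 window is chr8:11312777-11313076 on the minus strand and the Col4a2 window chr8:11312555-11312854 on the plus strand. Capitals mark the 78 bases that both windows hold, read on opposite strands, and the annotated start sites lie 21 bases apart.
Col4a1: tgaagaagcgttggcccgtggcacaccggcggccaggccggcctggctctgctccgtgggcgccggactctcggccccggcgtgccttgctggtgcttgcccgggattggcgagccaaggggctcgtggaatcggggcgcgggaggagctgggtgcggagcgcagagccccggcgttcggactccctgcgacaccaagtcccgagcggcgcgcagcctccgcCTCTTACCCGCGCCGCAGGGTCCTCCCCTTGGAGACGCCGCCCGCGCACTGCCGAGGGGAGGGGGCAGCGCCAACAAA
Col4a2: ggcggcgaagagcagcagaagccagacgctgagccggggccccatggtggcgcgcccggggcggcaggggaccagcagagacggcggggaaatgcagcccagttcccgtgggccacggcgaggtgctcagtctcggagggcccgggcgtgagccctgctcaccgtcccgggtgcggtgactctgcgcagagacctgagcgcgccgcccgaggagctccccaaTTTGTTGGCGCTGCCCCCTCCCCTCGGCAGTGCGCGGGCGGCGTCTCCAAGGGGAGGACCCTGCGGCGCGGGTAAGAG
The Pxdn window, chr12:29937786-29938085 on the plus strand, is shown because Pxdn had the largest difference between genotypes of the 10 genes.
Pxdn: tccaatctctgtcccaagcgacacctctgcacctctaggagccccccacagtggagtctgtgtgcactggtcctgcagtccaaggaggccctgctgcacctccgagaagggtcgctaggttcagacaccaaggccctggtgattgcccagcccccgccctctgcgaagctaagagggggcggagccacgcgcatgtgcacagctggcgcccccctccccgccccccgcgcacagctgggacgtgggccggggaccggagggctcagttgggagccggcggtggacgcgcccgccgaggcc
Small Maf partners are known to bind the antioxidant response element, so the letters of its core, TGACNNNGC, and of the shorter Maf site, TGCTGA, were searched on both strands. The Col4a2 window held 1 match to the core, TGACTCTGC, which begins 74 bases before the start site and outside the shared bases. Over all 32851 windows of this length, 12.4% held that core and 19.5% held TGCTGA. The Lamb1 window held 1 match to TGCTGA, on the opposite strand, and the windows of Pxdn, Col4a1, Nid1, Hspg2 and Lama5 held neither motif. A match is a likeness of letters and no measured binding, and the absence of a match covers only these 300 bases.

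Mafg was measured at 112.9, 120.7 and 134.5 normalized CPM in the controls, at 10.1, 21.0 and 24.1 in the compound KO and at 24.6, 21.2 and 26.2 in the double KO. Mafk was measured at 5.2, 6.3 and 5.6 in the controls, at 4.3, 5.3 and 4.8 in the compound KO and at 0.6, 0.0 and 0.3 in the double KO. Each gene was thus low in the libraries of the genotypes with a homozygous deletion of it. Library totals were 728036 to 1131180, and the lowest belonged to compound KO replicate 1, which stood apart from the other 8 libraries. Its summed lens fiber cell markers (7 of 8 listed genes in the table) were at 6442 against 14930 to 20723 elsewhere, and its mesenchyme and fibroblast markers (10 of 10) at 2241 against 15.9 to 222.1. Its pigmented cell markers (5 of 6) summed to 685.3 against 3.3 to 32.4, and its neural retina markers (5 of 7) to 298.9 against 13.3 to 95.7. Lens markers were nevertheless present in all 9 libraries, with Mip, a water channel of the fiber cell membrane, at 3103 in that library and at 7835 to 10197 in the others. Differences that involve the compound KO are mostly given with and without this library. No source states whether the libraries of a genotype came from separate litters, so p-values measure the spread between these pools.

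Col4a1, Col4a2 and Nid1 had the highest levels per length of the 10 genes. Per kilobase of exon (the union of exons on GRCm39), Col4a1 stood at 437 ± 27 normalized CPM (SD, n = 3 controls), Col4a2 at 315 ± 19 and Nid1 at 242 ± 5.4. Among the 10 genes Lamb1 followed at 25.8 ± 1.1, Lama1 at 22.7 ± 0.30 and Lamc1 at 20.3 ± 1.5. Hspg2 was at 5.62 ± 1.7, Col4a3 at 1.07 ± 0.18, Pxdn at 0.446 ± 0.11 and Lama5 at 0.0466 ± 0.048. Each gap between neighbours in this order was larger than the SD of either gene. With the longest annotated transcript in place of the union, Lamb1 was at 46.7, Lamc1 at 29.0 and Lama1 at 23.1, so the order of the 3 laminin chains depends on the length used. The table was built from assembled transcripts, so an entry may hold only part of the reads of its gene. The levels per kilobase are those of the entries and may fall short of those of the genes.

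**Figure D1:**
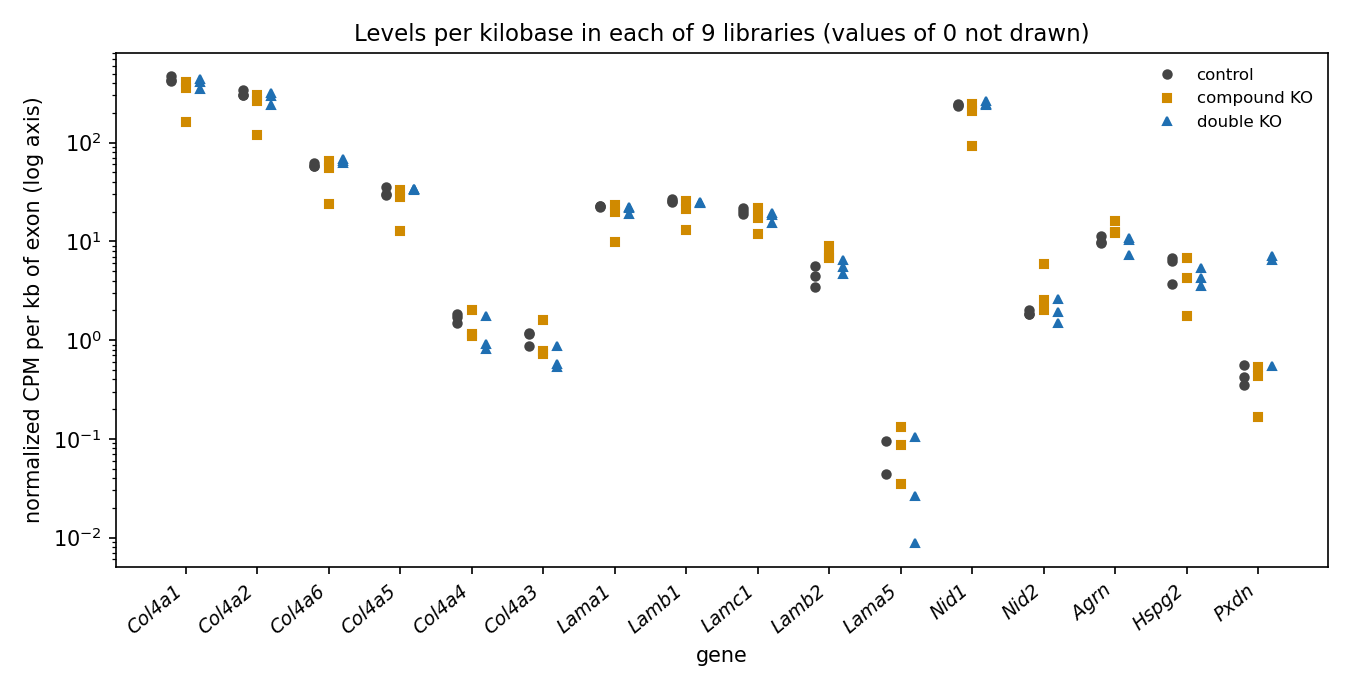
Level per kilobase of exon (y axis, normalized CPM per kb, log scale) of 16 capsule genes (x axis) in each of the 9 libraries, coloured by genotype. Col4a1, Col4a2 and Nid1 lie highest of these, Col4a6 and Col4a5 next, Lama1, Lamb1 and Lamc1 form a group near 20 to 26 in the controls, and Pxdn has its double KO libraries 2 and 3 far above the other 7.

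Pxdn was at a low level in 7 of the 9 libraries and at a high level in 2 of the 3 double KO libraries. The gene lies at chr12:29987607-30067658 on the plus strand of GRCm39. The table was built from assembled transcripts and 6193 of its entries carry no symbol, so the entry named Pxdn may hold only part of the reads of the gene. It was measured at 7.0, 5.3 and 4.4 normalized CPM in the controls, at 2.1, 5.4 and 6.7 in the compound KO and at 6.9, 81.5 and 88.7 in the double KO. Double KO replicate 1 therefore lay among the control values while replicates 2 and 3 lay far above all other libraries, and the double KO and control ranges overlapped. The mean was 59.0 ± 45 (SD, n = 3) in the double KO against 5.57 ± 1.3 in the controls and 4.73 ± 2.4 in the compound KO. On the log2(value + 1) scale the double KO exceeded the control by 2.58 ± 0.98 (SE), with an unadjusted p = 0.0404 and an adjusted p = 0.470 in limma, fitted over 14122 entries with Benjamini-Hochberg adjustment. The same difference from the compound KO was 2.86 ± 1.0 with an adjusted p = 0.665 in limma over 14402 entries, and here the ranges did not overlap, by the gap from 6.7 to 6.9. Double KO replicate 1 decided the call against the control: without it the log2 difference was 3.73 and limma's adjusted p = 0.0153, past the threshold. That fit has only 2 double KO libraries, and the library left out is the 1 that disagreed with them, so it is no separate test of the genotype. Against the compound KO the adjusted p without that library was 0.241, with a log2 difference of 4.01. The compound KO differed from the control by -0.28 ± 0.38 on the log2 scale (limma, adjusted p = 0.726), and by 0.12 without compound KO replicate 1.

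**Figure D2:**
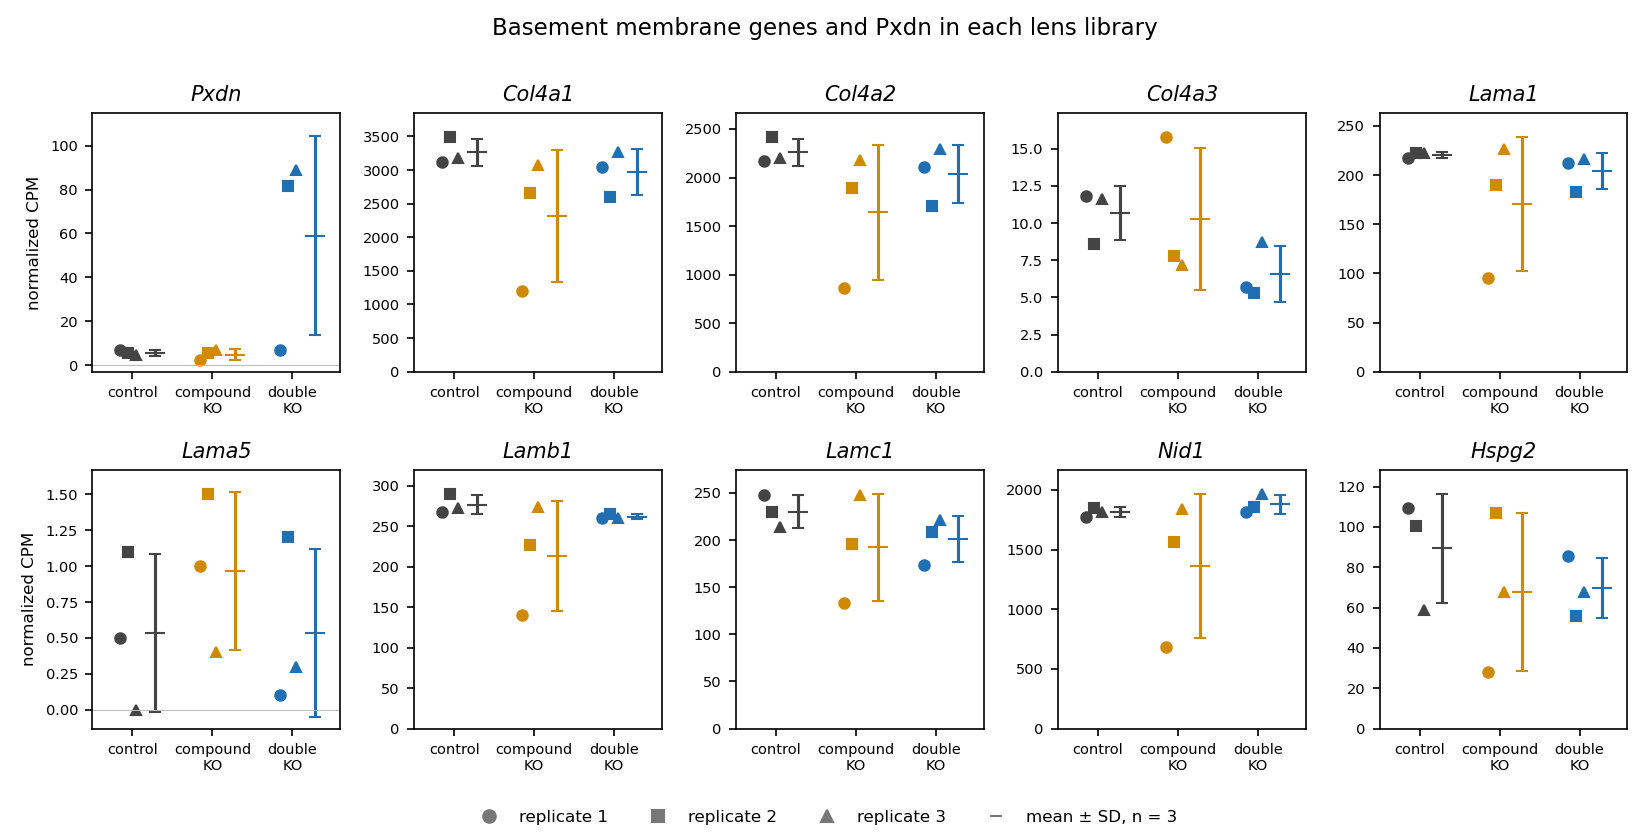
Normalized CPM (y axis, a scale for each gene) of the 10 genes in each library, by genotype (x axis). Symbols are the 3 replicates and the bars give mean ± SD; Pxdn was at 81.5 and 88.7 in double KO replicates 2 and 3 and at most 7.0 in the other 7 libraries, and compound KO replicate 1 was the lowest library for 8 of the 10 genes.

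Col4a1 and Col4a2 encode the chains of the most widespread collagen IV trimer. They lie head to head on chromosome 8 of GRCm39, Col4a1 at chr8:11248423-11362826 on the minus strand and Col4a2 at chr8:11362471-11499287 on the plus strand. Col4a1 was measured at 3115.6, 3494.5 and 3180.2 in the controls, at 1200.2, 2664.2 and 3074.9 in the compound KO and at 3043.6, 2592.5 and 3262.7 in the double KO. The 3 compound KO libraries all lay below the controls, replicate 3 by a small margin, and the double KO libraries overlapped them. Col4a2 was measured at 2165.2, 2419.5 and 2199.4 in the controls, at 857.0, 1894.2 and 2179.6 in the compound KO and at 2103.4, 1710.3 and 2289.3 in the double KO. The library order was close to that of Col4a1, with compound KO replicate 1 lowest and control replicate 2 highest. The ratio of Col4a1 to Col4a2, in which the scaling of a library cancels, was 1.40 to 1.52 in the 9 libraries. Its coefficient of variation was 2.40%, against 23.8% for Col4a1 itself, and 2.35% against 9.77% without compound KO replicate 1. Double KO replicate 2 had the highest ratio at 1.52, and the genotype means were 1.44 ± 0.0037 (control), 1.41 ± 0.0052 (compound KO) and 1.46 ± 0.047 (double KO).

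In limma, the double KO differed from the control by -0.14 ± 0.10 (log2 ± SE, adjusted p = 0.728) for Col4a1 and by -0.16 ± 0.12 (adjusted p = 0.736) for Col4a2. The compound KO differed from the control by -0.61 ± 0.38 (adjusted p = 0.497) and -0.57 ± 0.37 (adjusted p = 0.502). Without compound KO replicate 1 these became -0.19 and -0.15, with adjusted p of 0.507 and 0.553.

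Col4a3, a chain of the trimer known from kidney glomeruli and mature basement membranes, was measured at 11.8, 8.6 and 11.6 in the controls, at 15.8, 7.8 and 7.2 in the compound KO and at 5.7, 5.3 and 8.7 in the double KO. Double KO replicates 1 and 2 lay below every control, and replicate 3 at 8.7 lay just above control replicate 2 at 8.6. The gene lies at chr1:82564642-82699780 on the plus strand of GRCm39. The log2 difference between double KO and control was -0.64 ± 0.21, at an unadjusted p = 0.0256 and an adjusted p = 0.406 in limma. Between compound KO and control it was -0.12 ± 0.31 (adjusted p = 0.867), and -0.45 without compound KO replicate 1 (adjusted p = 0.433). Its neighbour and trimer partner Col4a4, at chr1:82426144-82564800 on the minus strand, was measured at 19.7, 17.1 and 21.2 in the controls, at 23.2, 13.1 and 12.6 in the compound KO and at 9.2, 10.4 and 20 in the double KO. As for Col4a3, double KO replicates 1 and 2 lay below every control and double KO replicate 3 within the control range. The log2 difference of Col4a4 between double KO and control was -0.59 ± 0.29 (limma, adjusted p = 0.584). Compound KO replicate 1 was the highest library for Col4a3 and Col4a4 and the lowest for the other 4 collagen IV chains.

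The remaining pair of chains, Col4a5 and Col4a6, lies head to head on the X chromosome. Col4a5 was measured at 282.9, 277.1 and 330.7 in the controls, at 118.2, 265.1 and 307.9 in the compound KO and at 311.2, 316.9 and 315.1 in the double KO. Col4a6 was measured at 458.3, 497.1 and 464.5 in the controls, at 189.0, 445.2 and 512.6 in the compound KO and at 519.0, 498.7 and 541.9 in the double KO. The double KO libraries thus all lay above the controls for Col4a6, by 0.14 ± 0.054 on the log2 scale (limma, adjusted p = 0.493), and within the upper control range for Col4a5 (0.087 ± 0.075, adjusted p = 0.768). None of the 6 collagen IV chains was called in any comparison by limma. Of all entries, 0.361% were called between double KO and control, 0.0% between compound KO and control and 0.0139% between double KO and compound KO. The absence of calls therefore says little about the chains. At an unadjusted p of 0.05 and 1.5-fold the only chain was Col4a3, in the double KO against the control. In the same order of comparisons 2.83%, 5.34% and 3.06% of all entries passed.

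Lama1, Lamb1 and Lamc1 encode the chains of laminin-111, the laminin of early embryonic basement membranes. Lama1, at chr17:68004223-68129642 on the plus strand of GRCm39, was measured at 217.0, 222.0 and 222.2 in the controls, at 94.9, 190.3 and 227.0 in the compound KO and at 211.8, 182.7 and 216.6 in the double KO. Lamb1, at chr12:31315030-31379658 on the plus strand, was measured at 267.8, 290.3 and 272.2 in the controls, at 139.8, 226.4 and 274.4 in the compound KO and at 260.4, 265.5 and 259.9 in the double KO. For both genes all 3 double KO libraries lay below all 3 controls, by small amounts. The log2 differences were -0.12 ± 0.073 for Lama1 (limma, adjusted p = 0.685) and -0.078 ± 0.045 for Lamb1 (adjusted p = 0.656). Lamc1, at chr1:153094597-153208774 on the minus strand, was measured at 247.8, 229.7 and 213.4 in the controls, at 133.6, 195.6 and 247.5 in the compound KO and at 173.5, 208.1 and 220.8 in the double KO. Its ranges overlapped, with a log2 difference of -0.20 ± 0.11 between double KO and control (limma, adjusted p = 0.627). The ratio of Lamb1 to Lamc1 was 1.05 to 1.501 in the 9 libraries with a coefficient of variation of 11.5%, and double KO replicate 1, where Lamc1 was low, had the highest ratio. Against the controls the compound KO differed by -0.46 ± 0.32 (Lama1), -0.43 ± 0.25 (Lamb1) and -0.30 ± 0.23 (Lamc1) on the log2 scale, with adjusted p of 0.525, 0.487 and 0.542 in limma. Without compound KO replicate 1 the differences were -0.084, -0.15 and -0.063.

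Lama5, the alpha chain of laminin-511 and the main one of many mature epithelia, was near the lower end of the table. It was measured at 0.5, 1.1 and 0.0 in the controls, at 1.0, 1.5 and 0.4 in the compound KO and at 0.1, 1.2 and 0.3 in the double KO. At this level the values of a genotype spread as widely as those of all 9 libraries, and the log2 difference between double KO and control was -0.00061 ± 0.37 (limma, adjusted p = 1). The gene lies at chr2:179818166-179867712 on the minus strand of GRCm39. Of the other laminin chains, Lamb2 was the most abundant, at 34.2, 26.9 and 21.2 in the controls, 54.3, 41.1 and 43.0 in the compound KO and 39.4, 28.5 and 33.6 in the double KO. All compound KO libraries lay above the controls for Lamb2, a beta chain that replaces Lamb1 in later basement membranes, by 0.74 ± 0.20 on the log2 scale at an unadjusted p = 0.0112 and an adjusted p = 0.481 in limma, and by 0.62 without compound KO replicate 1 (adjusted p = 0.395). Lama4, a chain of vessel basement membranes, was at 5.6 to 7.5 in the controls, 8.5 to 16.3 in the compound KO and 7.8 to 10.4 in the double KO. Lama3 was at 5.8 to 7.5, 4.7 to 7.6 and 4.4 to 4.8 in the same order of genotypes. Lama2, Lamb3 and Lamc3 were at 3.8 or less in every library.

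Nid1 encodes nidogen-1, the linker between the laminin and collagen IV networks, and lies at chr13:13612071-13686860 on the plus strand of GRCm39. It was measured at 1770.9, 1850.7 and 1818.6 in the controls, at 684.3, 1560.7 and 1838.6 in the compound KO and at 1812.5, 1857.2 and 1969.0 in the double KO. The control and double KO libraries overlapped and spread little, and the log2 difference was 0.051 ± 0.052 (limma, adjusted p = 0.805). The compound KO differed from the control by -0.53 ± 0.38 (adjusted p = 0.526) and, without its replicate 1, by -0.098. The ratio of Col4a1 to Nid1 was 1.75, 1.89 and 1.75 in the controls, 1.75, 1.71 and 1.67 in the compound KO and 1.68, 1.40 and 1.66 in the double KO. All 3 double KO ratios lay below those of the controls, with means of 1.58 ± 0.16 and 1.80 ± 0.078 (SD, n = 3). Compound KO replicates 2 and 3 also lay below the controls, and double KO replicate 2, at 1.40, was the lowest library. This ratio was not planned and was picked from several computed, with no share over other gene pairs to set beside it. Nid2, its paralog, was at 11.8 to 13.1 in the controls, at 38.3, 16.4 and 13.2 in the compound KO and at 9.6 to 16.9 in the double KO.

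Hspg2 encodes perlecan, the large heparan sulfate proteoglycan of basement membranes, and lies at chr4:137196079-137298231 on the plus strand of GRCm39. It was measured at 109.2, 100.6 and 58.7 in the controls, at 28.2, 106.8 and 67.9 in the compound KO and at 85.5, 55.9 and 67.6 in the double KO. Its values spread widely within each genotype and overlapped between them, with a log2 difference of -0.33 ± 0.28 between double KO and control (limma, adjusted p = 0.764). Agrn, which encodes the proteoglycan agrin, was at 108.2, 92.2 and 93.5 in the controls, at 155.3, 120.4 and 117.9 in the compound KO and at 103.8, 69.1 and 99.9 in the double KO. All compound KO libraries lay above the controls for Agrn (log2 difference 0.41 ± 0.14, limma, adjusted p = 0.481, and 0.28 without compound KO replicate 1). Col18a1, the source of endostatin, was at 14.1 to 37.9 in the controls, 12.7 to 18.5 in the compound KO and 16.0 to 40.6 in the double KO. Sparc, a collagen-binding protein needed for a sound lens capsule in mice, was at 848.5, 819.4 and 1270.6 in the controls, at 395.1, 593.1 and 835.5 in the compound KO and at 547.4, 810.2 and 730.2 in the double KO. The double KO libraries all lay below the controls for Sparc, by 0.48 ± 0.22 on the log2 scale (limma, adjusted p = 0.568).

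Over the 10 genes, none was called between any pair of genotypes, a call being a Benjamini-Hochberg adjusted p of at most 0.05 in limma and at least 1.5-fold. Of all entries tested, 0.361% were called between double KO and control, 0.0% between compound KO and control and 0.0139% between double KO and compound KO. At an unadjusted p of 0.05 and 1.5-fold, 2 of the 10 passed between double KO and control (Pxdn and Col4a3), 0 between compound KO and control and 1 between double KO and compound KO (Pxdn), where 2.83%, 5.34% and 3.06% of all entries did. The libraries did not overlap for 2 of the 10 between double KO and control (Lama1 and Lamb1, 15.8% of all entries), for 1 between compound KO and control (Col4a1, 23.9%) and for 1 between double KO and compound KO (Pxdn, 15.6%). These shares are of 10 genes and, for non-overlap, lie near the background. The study had reported Pxdn as raised in the double KO from these data, and the genes were chosen with earlier results known. The counts that hold Pxdn are thus no unbiased share to set against all entries. With 3 libraries in each group an exact permutation test of a single gene cannot give a two-sided p below 0.1. The median log2 difference of the 10 genes was -0.13 between double KO and control, -0.44 between compound KO and control and 0.34 between double KO and compound KO, beside 0.011, 0.016 and -0.0053 over all entries. The first 2 comparisons share the control libraries, and the last 2 share the compound KO libraries.

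**Figure D3:**
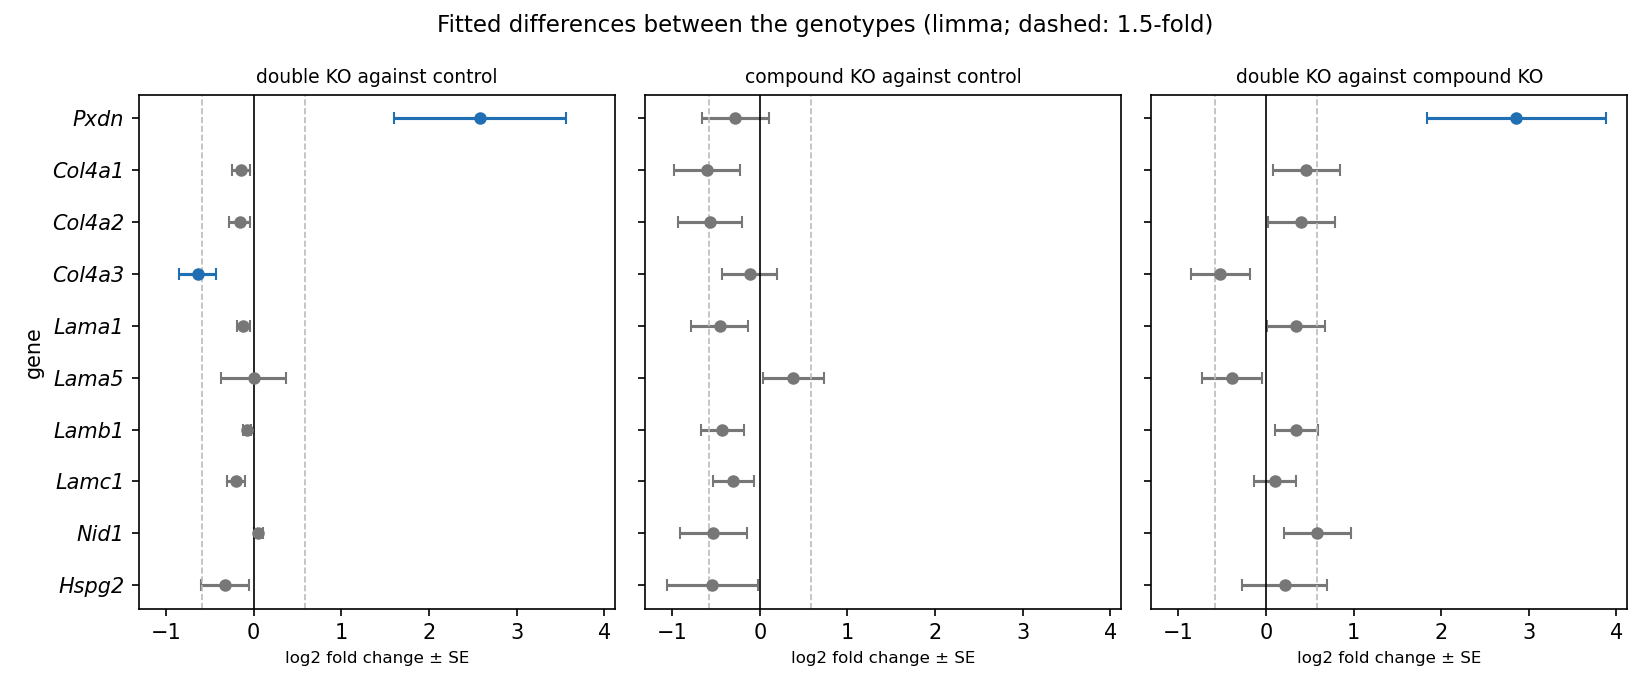
Fitted log2 fold change ± SE (x axis, limma on log2(value + 1)) of the 10 genes (y axis) in the 3 comparisons, with blue for an unadjusted p of at most 0.05 and dashed lines at 1.5-fold. Pxdn stands to the right in both double KO comparisons with a wide error, at 2.58 ± 0.98 and 2.86 ± 1.0, and no gene passed the adjusted threshold.

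The medians that involve the compound KO rested on compound KO replicate 1. In that library Col4a1 was at 36.8% of the control mean, Col4a2 at 37.9%, Nid1 at 37.7%, Lama1 at 43.1%, Lamb1 at 50.5%, Lamc1 at 58.0% and Hspg2 at 31.5%. The summed lens fiber cell markers were at 33.7% there. The summed lens epithelium markers (5 of 5) were at 81.6%, but they went in opposite directions, with Foxe3 at 29.2%, Cdh1 at 34.0% and Tfap2a at 63.2% of the control mean and Pax6 at 158% and Gja1 at 152%. Fewer lens cells, less RNA per cell and a larger share of RNA from other tissue cannot be told apart in such pools. Relative to Mip of the same library, Col4a1 was at 0.387 in compound KO replicate 1. The other 8 libraries were at 0.297 to 0.388, and the controls among them at 0.337 to 0.351. Without compound KO replicate 1 the median log2 difference of the 10 genes was -0.091 between compound KO and control and -0.021 between double KO and compound KO, with smallest adjusted p of 0.433 and 0.830 in limma. Endothelial markers (10 of 10) summed to 153.2 in this library and to 72.1 to 89.5 in the others, and Kdr, which the developing retina also expresses, made this excess, at 83.2 against 8.7 to 19.3. The other 9 endothelial markers summed to 70.0 there and to 60.8 to 78.1 in the other 8 libraries, and pericyte markers (5 of 5) to 94.3 to 119.8 in all 9. Kdr was left out after its values were seen, and with it the endothelial sum lay above that of the other libraries. Which cells held the Kdr RNA was not tested. Vessels around the embryonic lens also make collagen IV and laminin. The part of vessels and of mesenchyme, pigmented and retinal cells in the values of compound KO replicate 1 was not tested. Between the double KO and the control the summed lens fiber cell markers did not overlap either, at 14930 to 17232 against 17901 to 20723. Bfsp1, a beaded filament protein, made this gap, at 2604 to 3267 against 4519 to 5520, and the sums of the other 6 markers overlapped, at 12326 to 13965 against 13361 to 15203. Bfsp1 too was left out after its values were seen. Gja3, a far less abundant marker, also lay below every control in the double KO, by 0.78 ± 0.31 on the log2 scale (limma, unadjusted p = 0.0454, adjusted p = 0.484). Of the 7 markers, 2 were thus lower and 0 higher at an unadjusted p of 0.05 and 1.5-fold, which 2.83% of all entries passed. Prox1, a transcription factor of fiber cells, was at 427.1, 402.2 and 260.6 in the double KO and at 237.2 to 275.6 in the controls.

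**Figure D4:**
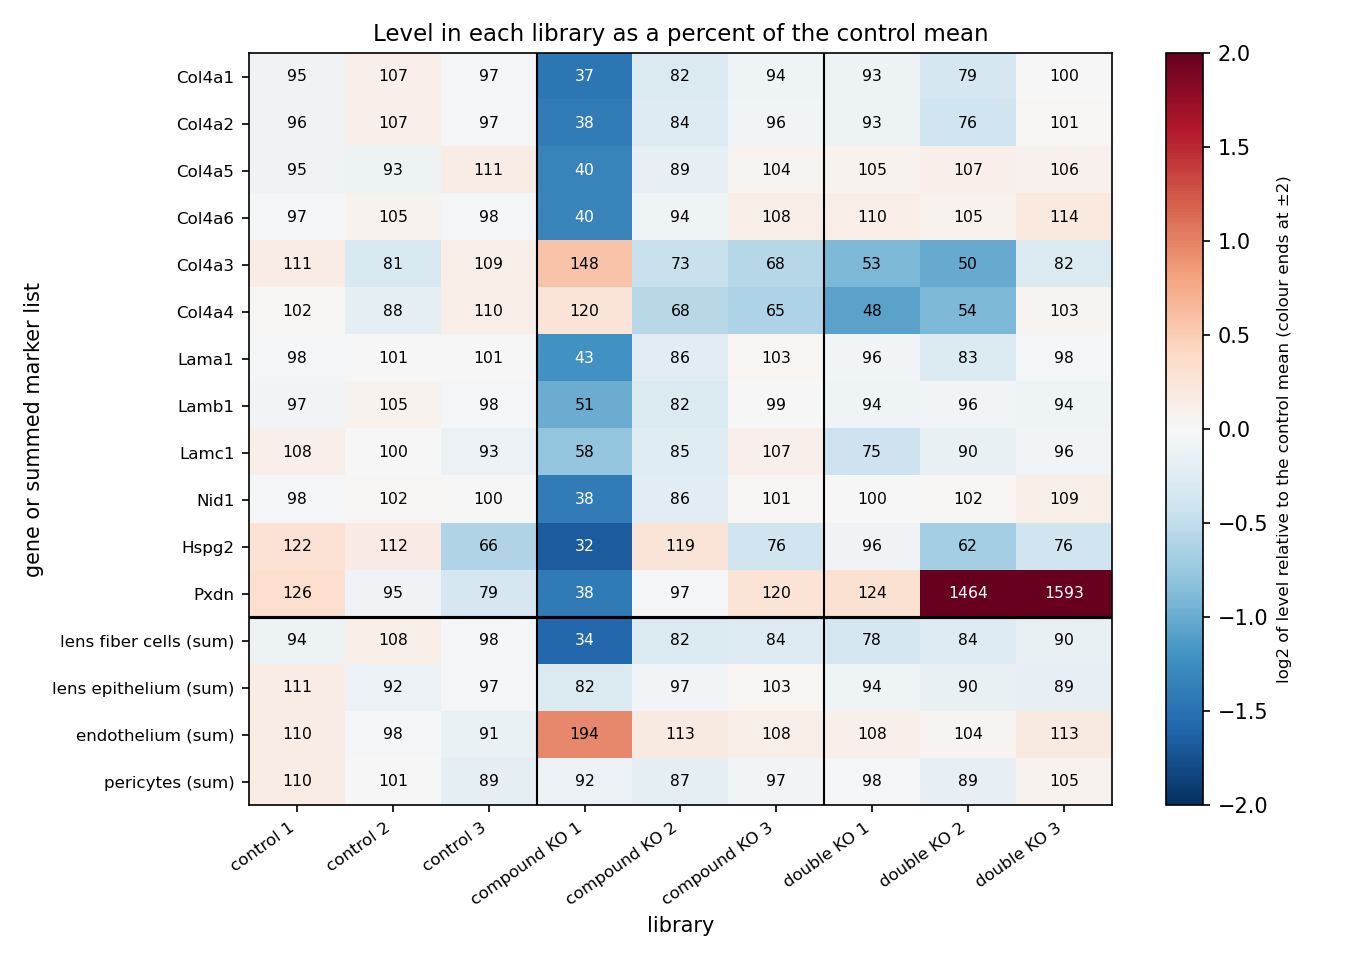
Level in each library (x axis) as a percent of the control mean, for 12 capsule genes and 4 summed marker lists (y axis); colour is the log2 of that ratio and ends at 2 in either direction. Compound KO replicate 1 is low for 10 of the 12 genes and for the lens fiber cell markers (33.7%), and Col4a3 and Col4a4 are instead high there at 148% and 120%.

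Some of the 10 genes ran together over the 9 libraries and others did not. By Pearson's r of log2(value + 1), Pxdn reached at most 0.484 with another of the 10 (Nid1) and Lama5 at most 0.018 (Pxdn). Col4a3 stood at -0.502 with Col4a1, and at 0.532 without compound KO replicate 1. The r was 0.997 between Col4a1 and Col4a2, 0.992 between Col4a1 and Lama1, 0.969 between Col4a1 and Nid1 and 0.924 between Col4a3 and Col4a4. Without compound KO replicate 1 (n = 8) these were 0.980, 0.895, 0.524 and 0.928, so the likeness of Col4a1 to Nid1 rested largely on that library. The r of Col4a1 with Lamc1 (0.849) and with Hspg2 (0.795) fell to 0.396 and 0.162 without it. Across all 10390 other entries with a symbol and a mean of at least 5, the 5 most like Col4a1 were Col4a2, Klhl21, Crybb1, Lama1 and Irs1, with r of 0.992 or more, and of 0.895 to 0.980 without compound KO replicate 1. Those most like Lama1 were Col4a1, Col4a2, Slit3, Mtor and Tmem245, with r of 0.988 or more, and of 0.821 to 0.919 without that library. Crybb1, a beta crystallin of fiber cells, was at 11882 in compound KO replicate 1 and at 29449 to 41960 in the others. Those most like Pxdn were Nhp2l1 (r = 0.975), Cers5 (0.962), 2310036O22Rik (0.953), Pja1 (0.938) and Hopx (0.928). Hopx was at 86.2 and 75.2 in double KO replicates 2 and 3 and at 31.4 to 50 in the other 7 libraries, and Nhp2l1 at 46.7 and 46.8 against 41.7 to 43.2. The points of each r share their library, its depth and its mix of cells.

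The wider gene lists of the basement membrane are given by the same calls, which 0.361%, 0.0% and 0.0139% of all entries passed in the 3 comparisons, so that 0 calls say little about a list of this size. Among 18 listed genes for collagen folding, hydroxylation and export, 17 were in the table and 0 were called in any comparison. P3h3, a prolyl 3-hydroxylase, was higher by 0.87 on the log2 scale in the compound KO than in the control, at an unadjusted p = 0.0438 and an adjusted p = 0.481 in limma, and by 0.54 without compound KO replicate 1 (adjusted p = 0.459). Of 11 cross-linking enzymes and heme peroxidases 6 were in the table and 0 were called. Loxl2, a lysyl oxidase that cross-links collagen IV, was measured at 30.0, 22.8 and 23.4 in the controls, at 39.8, 26.9 and 27.0 in the compound KO and at 38.0, 40.8 and 41.7 in the double KO. Its double KO libraries all lay above the controls, by 0.65 ± 0.12 on the log2 scale at an unadjusted p = 0.00174 and an adjusted p = 0.165 in limma. Loxl1, another lysyl oxidase, named after its values were seen, lay the other way, at 106.2, 104.2 and 112.7 in the controls, at 57.1, 87.4 and 93.7 in the compound KO and at 89.2, 76.2 and 85.9 in the double KO. All its double KO libraries were below the controls, with a log2 difference of -0.36 ± 0.073 at an unadjusted p = 0.00307 and an adjusted p = 0.213 in limma. Tgm2, a transglutaminase, was at 0.3 in each control and at 10.2, 2.7 and 0.8 in the compound KO (limma, adjusted p = 0.481), and without compound KO replicate 1 it was too low to be tested.

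Of 21 nidogens, proteoglycans and other basement membrane proteins, all were in the table and 0 were called. Smoc1, a calcium-binding relative of Sparc known for its part in eye development, was measured at 4.6, 5.0 and 4.3 in the controls, at 13.2, 5.9 and 3.0 in the compound KO and at 2.3, 1.7 and 1.4 in the double KO. Its double KO libraries all lay below the controls, with a log2 difference of -1.02 ± 0.15 at an unadjusted p = 0.00064 and an adjusted p = 0.104 in limma. Fras1, a protein that anchors epithelia to their basement membrane, differed by -0.81 between double KO and compound KO (limma, adjusted p = 0.665), and by -0.55 without compound KO replicate 1. Among 16 receptors 0 were called, and Bcam, a laminin alpha 5 receptor, had a log2 difference of 1.01 between compound KO and control (limma, adjusted p = 0.481), and of 1.34 without that library (adjusted p = 0.241). Of 14 matrix proteases and inhibitors 13 were in the table and 0 were called. Timp3, a protease inhibitor bound to the matrix, was at 179.7, 192.9 and 182.1 in the controls, at 85.0, 141.4 and 146.5 in the compound KO and at 125.3, 136.7 and 156.2 in the double KO. Every KO library lay below every control for Timp3, by 0.61 ± 0.22 (compound KO, adjusted p = 0.481) and 0.41 ± 0.088 (double KO, adjusted p = 0.232) on the log2 scale in limma. Without compound KO replicate 1 the compound KO lay below the control by 0.359 ± 0.051 (adjusted p = 0.171). Adamts9, a secreted protease, differed by 1.205 between compound KO and control and by -0.80 between double KO and compound KO (limma, adjusted p of 0.481 and 0.665), and by 1.21 and -0.80 without compound KO replicate 1.

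Like Pxdn, some genes of collagen processing jumped between libraries of 1 genotype. With the 9 values of an entry put in order, the largest ratio between neighbours (each value plus 1) was 10.3 for Pxdn and at most 2.28 for the other 9 genes. Among 7114 entries with a symbol and a highest value of at least 20, 627 (8.81%) had such a step of at least 3-fold, a limit set after the values were seen. Among the basement membrane lists 11 of 63 such entries had it, and in 6 of the 11 compound KO replicate 1 was the only library above the step. Serpinh1, the collagen chaperone, was at 73.6 in control replicate 3 and 78.2 in compound KO replicate 2 and at 4.5 to 6.3 in the other 7 libraries. P4ha1, a subunit of prolyl 4-hydroxylase, was at 208.7 to 291.3 in 4 libraries of all 3 genotypes and at 22.7 to 53.3 in the other 5. Bmp1, a procollagen protease, was at 5.8 in control replicate 1 and 6.0 in double KO replicate 2 and at 21.0 to 84.7 elsewhere. Plod3, a lysyl hydroxylase, was at 9.6 in control replicate 3 and at 32.8 to 47.6 elsewhere. Double KO replicate 2, a high library of Pxdn, was also the only high double KO library of P4ha1 and the only low one of Bmp1. In these 4 genes libraries of 1 genotype lay on both sides of the step in at least 1 genotype, as for Pxdn in the double KO.

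**Figure D5:**
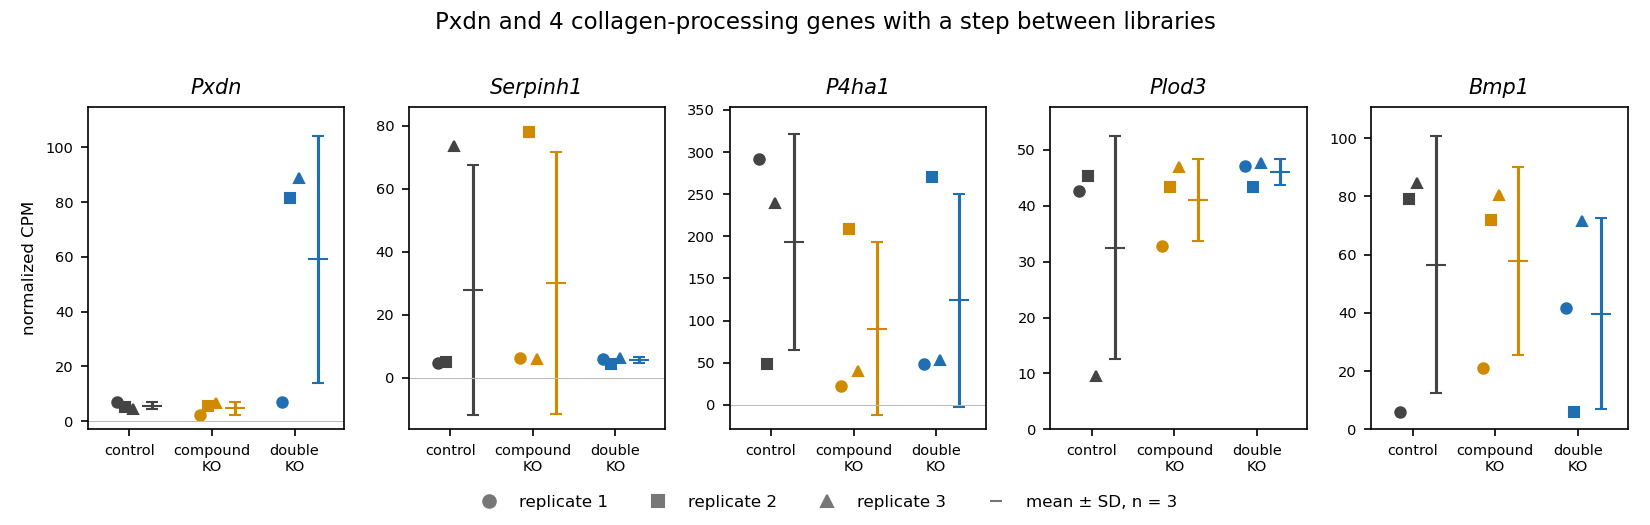
Normalized CPM (y axis, a scale for each gene) of Pxdn and 4 collagen-processing genes in each library by genotype (x axis), with mean ± SD at n = 3. Each gene has libraries at a low and at a high level; the high libraries of Pxdn were double KO replicates 2 and 3, and those of Serpinh1 were control replicate 3 and compound KO replicate 2.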

How the data were processed

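RNA from pools of 8 lenses at E16.5 was sequenced, 3 libraries per genotype. Per the study's methods, the authors aligned reads to mm39 with HISAT2, assembled them with StringTie to transcript-level counts and used edgeR, with entries under 1 CPM removed. The authors deposited 1 table of normalized signal, read from its values and totals as CPM times a factor per library, rounded to 1 decimal; 6193 of 22013 entries carry no symbol and were not tested. Read depth cannot be recovered from it, so no count model was used.

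From these values log2(value + 1) was fitted per pair of genotypes with limma 3.58.1 in R 4.3.3, with an intensity trend, over entries with a symbol and at least 1 in 2 of the 6 libraries (two-sided, Benjamini-Hochberg). All 10 genes passed. The script was checked on simulated data. Gene positions and exon lengths came from GENCODE on GRCm39, promoter sequences and their coordinates from RefSeq on GRCm38.p6. Alternatives changed the scaling, filter, pseudocount, libraries, block, shared symbols and thresholds.

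Named were Mafg and Mafk, the 10 genes, other collagen IV and laminin chains, Nid2, Agrn, Col18a1 and Sparc, from each other list up to 3 genes with the smallest p at an unadjusted p of 0.05 and 1.5-fold, and the 5 genes most like Pxdn, Col4a1 and Lama1; the step genes were chosen after their values were seen. Members and lists were chosen with earlier results of these data known.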

Additional observations from a re-analysis of the deposited data

How the results depend on the processing

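None of the 10 genes was called in any of the 3 comparisons under any alternative except the following. At an unadjusted p with 1.5-fold, 2 were called between double KO and control and 1 between double KO and compound KO, and leaving out double KO replicate 1 called 1 (Pxdn, log2 difference 3.73) between double KO and control, so that leave-one-out counts ranged from 0 to 1. Of 415 alternative values of the log2 differences, 400 kept their direction and their side of the threshold and 14 changed direction. With equal library totals, which moved the median of all entries to 0.24 between compound KO and control and to -0.17 between double KO and compound KO, Lama5 came to 0.021 between double KO and control, Col4a3 to 0.12 between compound KO and control and Lamc1 to -0.086 between double KO and compound KO. With a pseudocount of 0.1, Lama5 came to 0.18 between double KO and control. With 1 library left out, Lama5 ranged from -0.28 to 0.21 between double KO and control, and between compound KO and control Col4a3 ranged from -0.45 to 0.072 and Pxdn from -0.54 to 0.12. Between double KO and compound KO, Col4a2 ranged from -0.0089 to 0.66, Lama1 from -0.033 to 0.59, Lamc1 from -0.14 to 0.30 and Hspg2 from -0.31 to 0.63; the lowest value of each came without compound KO replicate 1. Leaving out compound KO replicate 2 or 3 turned Col4a3. The cause of these turns was not tested.

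With the replicate number as a block, 0 of the 10 genes were called in each comparison, and over all entries 10, 0 and 0 were called in place of 51, 0 and 2. Same-numbered libraries correlated at -0.11 to 0.22 in their deviations from the genotype means, and different-numbered ones at -0.22 to 0.19. All same-numbered values except that of replicate 3 of control and compound KO were above 0. These values do not settle whether the numbers pair the libraries, and the main fits took no pairs. Read depth is not known, and values under 1, such as those of Lama5 and of Mafk in the double KO, carry a rounding step of 0.1.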

Other observations

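Among the 2774 entries with no gene symbol and a highest value of at least 10, those that ran most opposite to the step genes were looked up. The entry most opposite to Pxdn was at 5.6 and 0.0 in double KO replicates 2 and 3, the libraries where Pxdn was high, and at 18.3 to 33.9 in the other 7 (Pearson's r = -0.937). For Serpinh1 the entry was at 0.0 in control replicate 3 and in compound KO replicate 2, its high libraries, and at 10.3 to 13.8 elsewhere. For Bmp1 it was at 77.9 in control replicate 1 and 58.7 in double KO replicate 2, its low libraries, and the sum of the pair had a coefficient of variation of 12.5% against 64.2% for Bmp1 alone. For Pxdn the sum still varied by 56.1%, against 152% for Pxdn alone. For P4ha1 it varied by 50.6%, against 83.2% for P4ha1 alone. For Lox it fell from 207% to 6.09%, with an entry at 283.8 to 405.4. Adding an entry picked to run opposite lowers the coefficient of variation in any case, so the fall does not tell which entries belong together. Which transcripts these entries hold is not given in the sources used here, and the best of 2774 was taken each time.

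Skeletal muscle markers (7 of 7) summed to 2.0 to 4.1 in the controls, to 18.8 to 327.6 in the compound KO and to 24.7 to 76.9 in the double KO, with Ckm and Myod1 at 0 in some controls. Of these markers Myod1 was called between double KO and control (log2 difference 3.01 ± 0.17, limma, adjusted p = 0.00386), as 0.361% of all entries were. Myod1 was near 0 in the controls and passed the filter through its double KO libraries. Erythroid markers (7 of 7) summed to 1170 to 1639, 1425 to 2832 and 2335 to 3867, macrophage markers (8 of 8) to 12.8 to 17.1, 23.4 to 38.8 and 8.6 to 17.7, and surface epithelium markers (2 of 5) to 0.4 to 2.2, 3.0 to 254.6 and 2.2 to 3.8, in the same order. Their part in the values of the capsule genes was not tested.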
